A study of Homo sapiens with 2 samples.

Results

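The genes described here are the ligands, receptor tyrosine kinases and neuropilins of the vascular endothelial growth factor (VEGF) family. They were taken by gene symbol from the gene tables of the renal carcinoma line 786-O and of its SETD2 knockout. The 9 listed symbols, VEGFA, VEGFB, VEGFC, PGF, FLT1, KDR, FLT4, NRP1 and NRP2, were each found as 1 row among 23375 rows, and 8 of them had at least 10 reads over both libraries. 786-O is an established line from a clear cell renal carcinoma that lacks functional VHL, and both groups share that background. The wild-type group was 786-O itself and the knockout group was 786-O in which SETD2, the enzyme that trimethylates H3K36, had been disrupted with a zinc finger nuclease. Both lines were grown in serum-supplemented RPMI1640 without a further agent, and each gave 1 RNA-seq library. Whether the knockout line is 1 clone is not given in the sources used here. With 1 library per line there is no replicate error, so each difference compares these libraries, and the intervals given are exact 95% intervals that cover counting error only.

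VEGF ligands are secreted dimers that act on receptor tyrosine kinases, best known from endothelial cells. VEGFA binds FLT1 and KDR, VEGFB and PGF bind FLT1, and VEGFC binds FLT4 and, after proteolytic processing, KDR. Neuropilins are co-receptors with short cytoplasmic tails that bind both VEGF ligands and class 3 semaphorins. In clear cell renal carcinoma, loss of VHL stabilises hypoxia-inducible factors, of which VEGFA is a classical target.

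Gene counts summed to 62304084 fragments for the wild-type line and 50670012 for the knockout line. For SETD2 itself, 4908 wild-type fragments stood against 1404 in the knockout, a ratio of 0.334 (interval 0.314 to 0.354). Of 6 markers chosen for a renal carcinoma line, each was present in both libraries. The renal transcription factor PAX8 stood at 43.7 and 30.9 RPKM and the keratin KRT8 at 239 and 211 RPKM. VIM, which encodes vimentin, was lower in the knockout library at 1734 and 1192 RPKM, and the cadherin CDH6 was higher at 14.7 and 31.0 RPKM.

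Levels between genes were compared as RPKM, the authors' read count relative to gene length and library total. In the wild-type library the order from the highest level was NRP2 at 45.8 RPKM, VEGFA at 38.0, VEGFC at 12.9, NRP1 at 11.8, VEGFB at 9.23, PGF at 0.439, KDR at 0.0424 and FLT1 at 0.00388, with FLT4 at 0. In the knockout library it was NRP2 at 30.0 RPKM, NRP1 at 24.7, VEGFA at 20.5, VEGFC at 17.7, VEGFB at 10.4, PGF at 0.226, KDR at 0.0190, FLT1 at 0.0120 and FLT4 at 0.00450. NRP1 thus stood below VEGFA and VEGFC in the wild-type library and above both in the knockout library. The counting intervals of the wild-type levels of VEGFC (12.3 to 13.4 RPKM) and NRP1 (11.5 to 12.1) did not overlap, whereas those of FLT1 and FLT4 overlapped in both libraries and those of KDR and FLT1 in the knockout library. The gene-level counts do not separate splice forms such as those of VEGFA or the soluble form of FLT1.

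**Figure D1:**
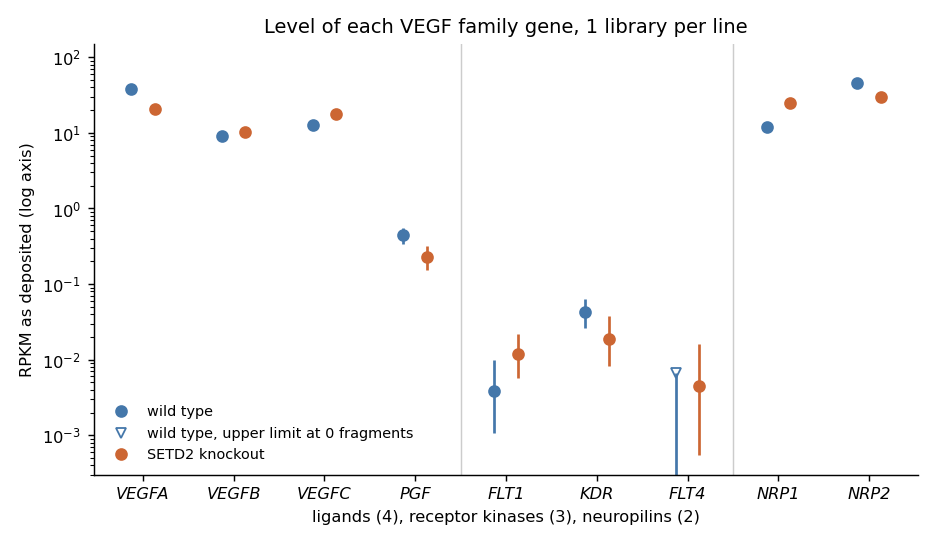
Level of each of the 9 genes in RPKM as deposited, on a log axis, in the wild-type (blue) and knockout (orange) library. Points are the values of 1 library each, vertical lines are exact 95% Poisson counting intervals, and the open triangle is the upper limit of FLT4 at 0 wild-type fragments; 5 genes lie between 9.23 and 45.8 RPKM in both libraries, while the 3 receptor kinases lie below 0.05 RPKM.

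Promoter windows were available in a RefSeq-based table (GRCh38.p14) for 6 of the 9 genes, namely VEGFB, VEGFC, PGF, FLT1, KDR and NRP2. The promoters of VEGFA, NRP1 and FLT4 were not searched here. PGF had 2 windows, which overlap and share a GC box, so 7 windows were searched. The 250 bases before each start were searched on both strands for ACGTG (the core of the hypoxia response element), GGGCGG (the GC box) and TATAAA. In all, 7 of 7 windows from these 6 genes held GGGCGG, 0 held ACGTG and 1, that of FLT1, held TATAAA. Among the 35116 promoters of the table, 42.6% held GGGCGG, 18.5% held ACGTG and 10.7% held TATAAA in a window of the same length. The windows of an abundant co-receptor (NRP2), an abundant ligand (VEGFC) and 2 receptor kinases near the detection limit (KDR and FLT1) are shown to set expressed beside scarcely expressed members, 5′ to 3′ on the gene's strand, with the searched motifs and their reverse complements in capitals.
NRP2: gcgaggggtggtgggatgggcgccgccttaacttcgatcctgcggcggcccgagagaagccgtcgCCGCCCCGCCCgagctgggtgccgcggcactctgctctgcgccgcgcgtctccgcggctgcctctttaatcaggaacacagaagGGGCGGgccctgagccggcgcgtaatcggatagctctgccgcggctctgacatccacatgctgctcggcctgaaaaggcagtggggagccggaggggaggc
VEGFC: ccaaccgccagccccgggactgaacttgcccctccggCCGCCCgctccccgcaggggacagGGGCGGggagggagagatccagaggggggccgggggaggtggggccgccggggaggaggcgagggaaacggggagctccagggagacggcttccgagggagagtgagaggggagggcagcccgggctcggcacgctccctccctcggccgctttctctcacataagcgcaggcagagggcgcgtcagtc
KDR: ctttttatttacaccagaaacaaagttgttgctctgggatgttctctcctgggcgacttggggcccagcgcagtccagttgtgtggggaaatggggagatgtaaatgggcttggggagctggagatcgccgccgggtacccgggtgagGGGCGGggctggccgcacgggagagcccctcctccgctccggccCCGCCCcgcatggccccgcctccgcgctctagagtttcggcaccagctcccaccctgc
FLT1: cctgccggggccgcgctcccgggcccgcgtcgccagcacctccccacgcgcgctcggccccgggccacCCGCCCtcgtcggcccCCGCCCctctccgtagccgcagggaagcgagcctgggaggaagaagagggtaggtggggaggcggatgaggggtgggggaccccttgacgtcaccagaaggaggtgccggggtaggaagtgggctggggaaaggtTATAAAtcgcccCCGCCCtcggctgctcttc
These windows lie at chr2:205682251-205682500 (plus strand), chr4:176792923-176793172, chr4:55125596-55125845 and chr13:28495129-28495378 (minus strand for the last 3). NRP2 had 3 GC boxes, the first bases of which lay 185, 180 and 101 bases before the start, and the first and second of these share 1 base. VEGFC had 2, at 213 and 189 bases, KDR 2, at 102 and 58, and FLT1 3, at 182, 166 and 19 bases, beside its TATAAA at 31 bases. GC boxes were found in the windows of scarcely expressed and of abundant members alike.

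Among the ligands, VEGFA was lower in the knockout library. VEGFA (hg19 chromosome 6, 43737946 to 43754223) had 11936 fragments in the wild type and 5229 in the knockout, or 38.0 and 20.5 RPKM. After TMM scaling, the knockout to wild-type ratio was 0.511 (interval 0.495 to 0.528), a log2 ratio of -0.97. In bulk RNA, fewer cells with a transcript and fewer transcripts per cell cannot be told apart. In rank, 93.7% of all genes had a lower RPKM than VEGFA in the wild-type library and 88.6% in the knockout library.

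VEGFC (chromosome 4, 177604691 to 177713895), the main ligand of lymphatic vessel growth, was counted in 2293 and 2567 fragments, or 12.9 and 17.7 RPKM. Its ratio was 1.31 (interval 1.23 to 1.38), above 1 but short of 1.5-fold. VEGFB (chromosome 11, 64002056 to 64006736), a ligand of FLT1, was counted in 1428 and 1308 fragments, or 9.23 and 10.4 RPKM. Its ratio was 1.07 with an interval of 0.990 to 1.15 that includes 1. With total count scaling it was 1.13 (interval 1.04 to 1.21), which lies above 1, so whether VEGFB differed depended on the scaling. PGF (chromosome 14, 75408533 to 75422467), the placental growth factor, was the scarcest of the 4 ligands with 72 and 30 fragments, or 0.439 and 0.226 RPKM. Its ratio of 0.486 was near that of VEGFA, but with so few fragments the interval ran from 0.306 to 0.754. The remaining ligand of the family, VEGFD (listed as FIGF), had 1 fragment in the wild type and 0 in the knockout, and both are under the floor of 3 fragments used here.

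The make-up of the ligand pool therefore differed between the libraries. Summed over the 4 ligands, the level was 60.6 RPKM in the wild-type and 48.9 RPKM in the knockout library, a ratio of 0.808. VEGFA made up 62.8% of this sum in the wild-type and 42.0% in the knockout library. The share of VEGFC was 21.2% and 36.3%, that of VEGFB 15.2% and 21.3%, and that of PGF 0.726% and 0.461%. VEGFA remained the largest share in both libraries. Without VEGFA the sum of the other ligands was 22.5 and 28.4 RPKM, a ratio of 1.26 in the opposite direction. These sums are of deposited RPKM, unlike the TMM ratios of single genes. With TMM-scaled fragments per kb the ratio for the 4 ligands was 0.765.

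Ratios between a pair of members do not depend on how the libraries are scaled to each other. VEGFA was 2.96-fold as high as VEGFC per length in the wild-type library and 1.16-fold as high in the knockout library. The ratio of VEGFA to VEGFC was thus 2.56-fold lower in the knockout library (interval 2.39-fold to 2.73-fold). The ratio of VEGFA to VEGFB was lower by a factor of 2.09 (interval 1.92 to 2.27), and that of VEGFC to VEGFB was 1.22-fold higher (interval 1.11 to 1.34). For VEGFA to PGF, at 86.5 and 91.0 per length, the same comparison gave 1.05 (interval 0.677 to 1.67).

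**Figure D2:**
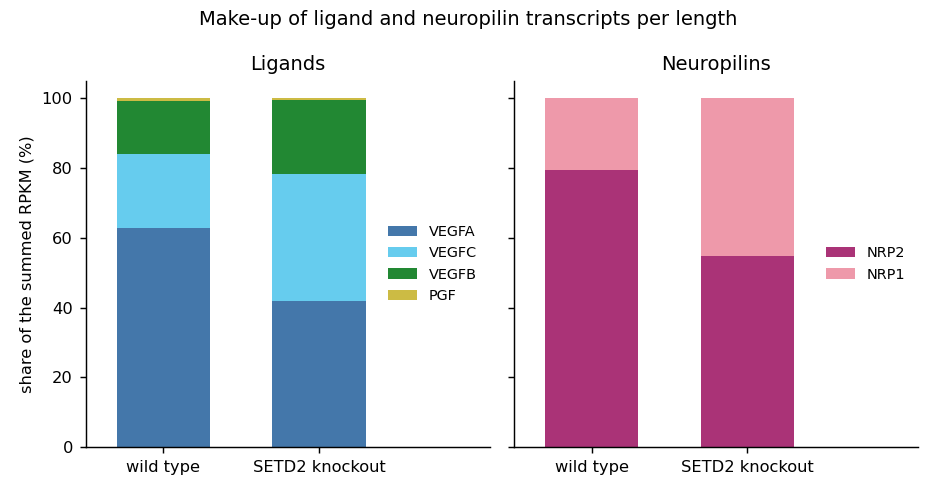
Share of each gene in the summed RPKM of the 4 ligands (left) and of the 2 neuropilins (right), in percent, for the wild-type and knockout library (1 library each, no error bars). VEGFA takes 62.8% of the ligand sum in the wild-type bar and 42.0% in the knockout bar, and NRP1 takes 20.5% and 45.2% of the neuropilin sum.

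The neuropilins differed in opposite directions. NRP1 (chromosome 10, 33466419 to 33623833), which binds VEGFA and SEMA3A, had 6002 fragments in the wild type and 10159 in the knockout, or 11.8 and 24.7 RPKM. It was higher in the knockout library with a ratio of 1.97 (interval 1.91 to 2.04). NRP2 (chromosome 2, 206547224 to 206662857), which binds VEGFC and SEMA3F and whose promoter window is printed above, was counted in 30294 and 16091 fragments, or 45.8 and 30.0 RPKM. It was lower, with a ratio of 0.620 (interval 0.608 to 0.632), and its interval ended at 0.666 when libraries were scaled by total count, close to the limit of 1.5-fold. NRP2 was the most abundant member per length in both libraries.

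Summed over both neuropilins, the level was 57.6 and 54.6 RPKM, a ratio of 0.949 (0.898 with TMM-scaled fragments per kb). NRP1 made up 20.5% of the summed RPKM in the wild-type and 45.2% in the knockout library. The ratio of NRP1 to NRP2 per length was 0.259 in the wild-type and 0.824 in the knockout library, 3.19-fold higher (interval 3.07 to 3.31) whatever the scaling. VEGFA was 3.21-fold as high as NRP1 per length in the wild-type library and 0.831-fold as high in the knockout library, a ratio 3.86-fold lower (interval 3.69-fold to 4.04-fold). Against NRP2, which was lower like VEGFA, the ratio of VEGFA was 1.21-fold lower (interval 1.17-fold to 1.26-fold).

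The receptor tyrosine kinases were close to undetected in both libraries. KDR (chromosome 4, 55944426 to 55991762), the main signalling receptor of VEGFA in endothelium, had 22 fragments in the wild type and 8 in the knockout, or 0.0424 and 0.0190 RPKM. Its ratio of 0.424 had an interval of 0.163 to 0.989, which reached 1.04 with total count or upper quartile scaling. FLT1 (chromosome 13, 28874483 to 29069265), which binds VEGFA with high affinity and signals weakly, was counted in 4 and 10 fragments. Its ratio of 2.92 had an interval of 0.841 to 12.7 that includes 1. FLT4 (chromosome 5, 180028506 to 180076624), the receptor of VEGFC, was counted in 0 and 2 fragments, both under the floor of 3 fragments, which corresponds to 0.00548 and 0.00675 RPKM. No fold is given for FLT4, the direction for FLT1 was not detectable at this depth, and the interval of KDR excluded 1 only with TMM and DESeq2 scaling among the 4 scalings compared. The 3 kinases summed to 0.0463 and 0.0355 RPKM, against 57.6 and 54.6 RPKM for the neuropilins.

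Several defining endothelial genes were likewise at or near 0, while others were counted at low levels. PECAM1 was counted in 1 and 0 fragments, CDH5, the endothelial cadherin, in 4 and 3, VWF in 1 and 1, and SOX17 and SOX18 in 0 in both libraries. Of 16 endothelial markers, 11 had at least 10 reads, and 4 of these were higher and 1 lower in the knockout library (45.5% called, against 19.6% of all genes), with a median log2 ratio of 1.12. The summed level of the 16 was 4.56 and 12.1 RPKM, of which EGFL7, a secreted endothelial protein, made up 3.21 and 9.94 RPKM. ENG, the TGF-beta co-receptor endoglin, was higher at 140 and 294 fragments (ratio 2.45). The angiopoietin receptor TEK was higher from 4 and 16 fragments, with an interval (1.51 to 19.2) that starts close to 1.5-fold, and was not called with DESeq2 scaling. ESAM, an endothelial adhesion molecule, had 45 and 50 fragments and was not called. ERG, an endothelial transcription factor, had 3 and 22 fragments (ratio 8.55, interval 2.57 to 44.6), and ROBO4, an endothelial guidance receptor, was the lower gene with 130 and 46 fragments (ratio 0.413). Of the lymphatic markers, LYVE1 had 0 fragments in both libraries, PROX1 2 and 1, and PDPN 93 and 0, which is at least 26.6-fold lower when 3 knockout fragments are assumed (the exact interval starts at 21.2-fold). These 3 lymphatic markers summed to 0.372 and 0.00468 RPKM.

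Markers of other cells were scarce as well, apart from CD68 and LCP1. Of 12 leukocyte markers, 7 were measured, with 2 higher and 1 lower (42.9% called, against 19.6% of all genes). The 12 summed to 25.0 and 71.5 RPKM, mostly from CD68 and LCP1. CD68 stood at 14.7 and 16.0 RPKM (ratio 1.03) and was not called. LCP1, an actin-bundling protein, was higher at 9.50 and 54.6 RPKM. CD3E had 0 fragments in both libraries and PTPRC had 2 and 1. CD14 had 7 and 38 fragments and CSF1R 198 and 68. Of 10 fibroblast and pericyte markers, 9 were measured, with 1 higher (COL1A1, 0.823 and 1.95 RPKM) and 3 lower (44.4% called). The 10 summed to 3.14 and 3.68 RPKM. COL1A2 had 14 and 0 fragments, and LUM, a matrix proteoglycan, had 251 and 79. Whether cells of these types had a part in the differences of the VEGF genes was not tested.

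Genes were called higher or lower if the interval lay entirely beyond 1.5-fold. Of the 8 measured members, 1 (NRP1) was higher, 2 (VEGFA and NRP2) were lower and 5 were neither. Over all 16894 genes tested by the same rule, 10.4% were higher, 9.17% lower and 19.6% either. Higher genes made up 53.1% of the calls (1756 higher, 1550 lower) with TMM and 61% (1998 higher, 1275 lower) with total count scaling. At 2-fold with TMM scaling, 0 members were called, against 5.75% of all genes higher, 3.37% lower and 9.12% either. The interval of NRP1 lay wholly above 2-fold with total count (2.02 to 2.15) and upper quartile scaling (2.01 to 2.15). The median log2 ratio of the 8 measured members was -0.30, beside 0.02 for all genes tested.

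**Figure D3:**
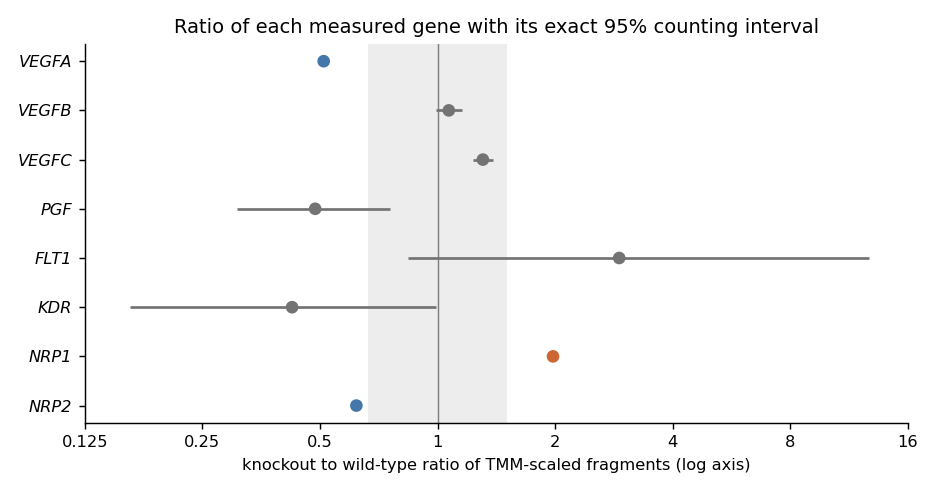
Knockout to wild-type ratio of TMM-scaled fragments for the 8 measured genes on a log axis, with exact 95% counting intervals as horizontal lines (shorter than the symbol for the abundant genes). The grey band spans ratios within 1.5-fold; VEGFA at 0.511 and NRP2 at 0.620 lie wholly below it and NRP1 at 1.97 wholly above it, while the intervals of PGF, FLT1 and KDR reach into it.

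The call already sets the 3 called members apart, since 10.4% of all genes were called higher and 9.17% lower. Most genes around a called member would therefore lie on the same side of it, and the counts here give position only. All 50 of the nearest genes with at least 100 reads had a higher log2 ratio than VEGFA, with a median of 0.11 over 3.66 Mb. Of the 50 genes nearest to NRP1, over 20.3 Mb, 48 had a lower log2 ratio (median -0.13). Of the 50 nearest to NRP2, over 9.70 Mb, 48 had a higher one (median 0.04). VEGFC, which was not called, ranked in the middle of its 50 nearest genes, with 26 genes below it and 24 above over 21.3 Mb. Most of these genes at lower coordinates had negative log2 ratios, and most at higher coordinates had positive ones. VEGFB, also not called, likewise ranked in the middle, with 28 below and 22 above. PGF and KDR, from few fragments, each had 49 of 50 nearest genes above them, and FLT1 had 48 of 50 below it. The nearest genes spanned 28.0 Mb for KDR and 14.1 Mb for FLT1. Of the tested genes directly beside the 3 called members, MRPS18A (ratio 1.18) and C6orf223 (0.560, interval 0.256 to 1.16) flank VEGFA, ITGB1 (0.998) and PARD3 (0.910) flank NRP1, and PARD3B (1.44) and INO80D (0.822) flank NRP2. None of these 6 genes was called. Beside VEGFC, SPCS3, a signal peptidase subunit, was lower at 0.599, and NEIL3, a DNA glycosylase, had a ratio of 1.42. No row of the tables overlapped any of the 9 genes in position.

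**Figure D4:**
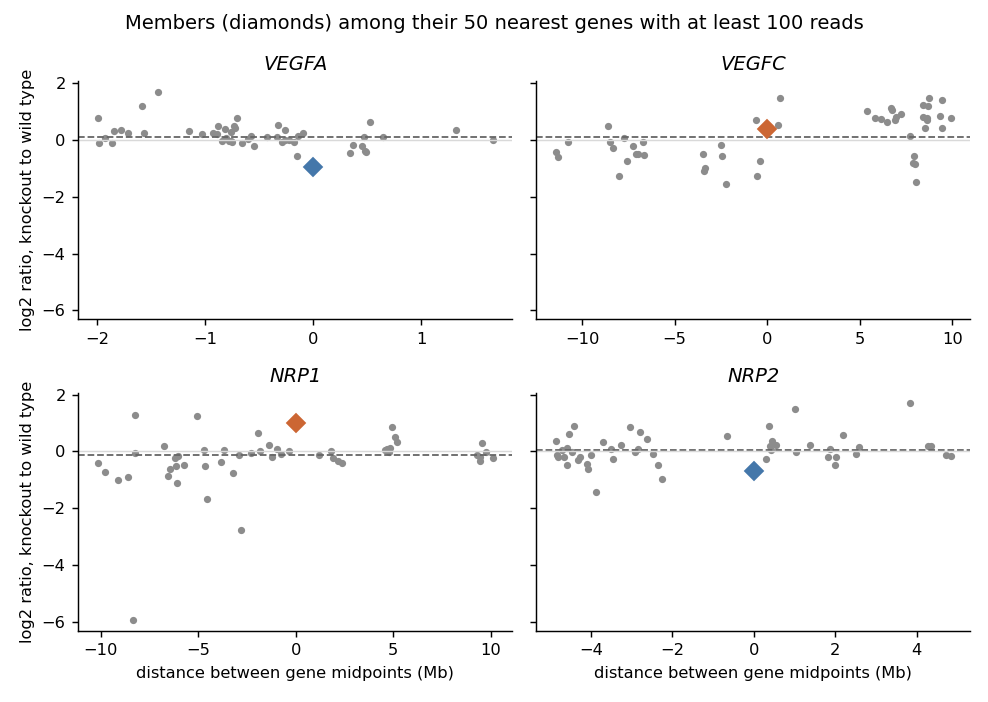
Log2 ratio of knockout to wild type (vertical axis) for VEGFA, VEGFC, NRP1 and NRP2 (diamonds) and their 50 nearest genes with at least 100 reads (grey points), by distance between gene midpoints in Mb. Dashed lines mark the median of the 50 genes; VEGFA lies below all of them, and VEGFC lies within their spread.

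The genes with levels most like VEGFA in the 2 libraries were M6PR, CENPW and RSU1, by distance in log2(RPKM + 0.1), with ratios of 0.486, 0.548 and 0.527. Those most like NRP2 were NUDT5, VPS29 and BIRC2, with ratios of 0.599, 0.594 and 0.597. Likeness over 2 libraries places a gene at the same level only.

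Known transcriptional regulators of VEGFA were measured in 21 of 22 cases, with 2 higher and 3 lower (23.8% called, against 19.6% of all genes) and a median log2 ratio of -0.13. EPAS1, the hypoxia-inducible factor subunit that accumulates in this line, was lower at 21.1 and 12.3 RPKM (ratio 0.553, interval 0.533 to 0.573). HIF1A had 3.28 and 2.12 RPKM (ratio 0.612) and their shared partner ARNT 7.04 and 5.07 RPKM (ratio 0.682), and neither was called. VHL, which targets both factors for degradation, had a ratio of 1.08. FOXM1, a proliferation-associated transcription factor, was lower at 33.2 and 14.7 RPKM (ratio 0.419). The coactivator PPARGC1A was higher at 53 and 130 fragments (ratio 2.86, interval 2.06 to 4.02). TWIST1 was at 0 in both libraries.

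RNA-binding and splicing factors known to act on VEGFA transcripts showed 0 called genes of 17, against 19.6% of all genes. Their median was -0.11. The most abundant, HNRNPA2B1 and HNRNPL, had ratios of 0.825 and 1.02.

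Genes of ligand processing, matrix binding and release differed in both directions. Of 22 measured, 5 were higher and 5 lower (45.5% called, against 19.6% of all genes), with a median of -0.10. MMP2, a gelatinase, was 8.01-fold lower at 30.2 and 3.98 RPKM, and the proprotein convertase PCSK6 was 5.14-fold lower with 144 and 24 fragments. GPC1, a heparan sulphate proteoglycan that binds VEGFA, was 2.23-fold higher at 29.4 and 69.1 RPKM, and CTGF, a matricellular protein that binds VEGFA, was 2.12-fold higher at 9.10 and 20.4 RPKM.

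Class 3 semaphorins share the neuropilins as receptors, with plexins as signalling partners. All 12 listed genes were measured, with 3 higher and 2 lower (41.7% called, against 19.6% of all genes). The median was 0.12, also with the 1 gene at 0 in the wild type set to its bound. SEMA3C, the most abundant of them, was lower at 65.5 and 27.1 RPKM (ratio 0.392, interval 0.383 to 0.401), and SEMA3B was lower at 3.40 and 1.29 RPKM (ratio 0.359). SEMA3F, a ligand of NRP2, was higher at 4.03 and 7.69 RPKM (ratio 1.81). PLXNA4 was higher from 8 and 51 fragments (ratio 7.44, interval 3.50 to 18.1).

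Downstream of the receptors, 44 of 45 signalling genes were measured, and 4 were higher and 4 lower (18.2% called, against 19.6% of all genes). The median log2 ratio was -0.07 and the mean 0.06, so the sign depended on the summary. NRAS, a small GTPase, was lower at 40.7 and 21.6 RPKM (ratio 0.501). PLCG2, a phospholipase C of blood cells, was 32.2-fold higher (interval 18.2 to 62.9), from 12 and 331 fragments. NFATC1, a calcineurin-regulated transcription factor, had 1 and 21 fragments (ratio 24.5, interval 3.94 to 1013). Of 19 genes of receptor trafficking and dephosphorylation, 1 was higher and 1 lower (10.5% called, median 0.11). DAB2, an endocytic adaptor, was higher at 8.89 and 21.5 RPKM (ratio 2.29), and the phosphatase PTPN11 was lower at 34.8 and 20.9 RPKM (ratio 0.569).

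Angiogenic factors outside the family included more lower than higher genes. Of 18 measured, 2 were higher and 6 lower (44.4% called, against 19.6% of all genes), with a median log2 ratio of -0.49. TYMP, thymidine phosphorylase, was 10.1-fold lower at 5.19 and 0.545 RPKM, and the chemokine IL8 was 9.19-fold lower at 69.8 and 8.02 RPKM. ANGPT1, a ligand of the receptor TEK, had 1 and 73 fragments (ratio 85.1, interval 14.8 to 3408), and FGF1 had 19 and 79 (ratio 4.85, interval 2.91 to 8.48). DLL4 and MIF were listed at 0 in both libraries. Of 11 measured antiangiogenic factors, 2 were higher and 1 lower (27.3% called), with a median of 0.42. SPARC, a matricellular protein, was higher at 147 and 275 RPKM (ratio 1.77), VASH1 (vasohibin) was higher at 0.418 and 1.18 RPKM (ratio 2.68), and ISM1 (isthmin) was lower at 3.82 and 2.16 RPKM (ratio 0.534).

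**Figure D5:**
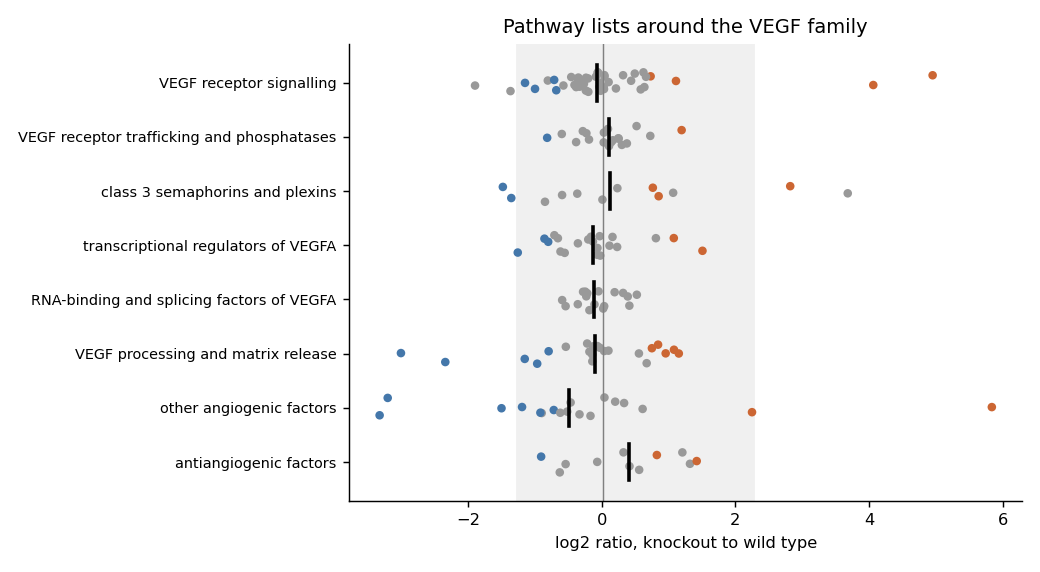
Log2 ratio of knockout to wild type for the measured genes of 8 lists around the VEGF family, with 1 point per gene (orange higher, blue lower, grey neither, by intervals beyond 1.5-fold) and black bars at each list's median. The grey band spans the central 90% of all genes tested (-1.27 to 2.27); list medians run from -0.49 for other angiogenic factors to 0.42 for antiangiogenic factors.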

How the data were processed

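Per the file headers, the deposited tables (1 for each library, on hg19) give raw counts of reads and RPKM by gene. The submitters' processing notes name TopHat2 2.0.6, Bowtie and HTSeq. Settings, annotation release and strandedness of the counting are not given in the sources consulted. All deposited counts were even, which fits 2 reads per fragment, and they were divided by 2. Each table had 23398 rows, and Y rows of genes also listed on X were dropped, which left 23375. Of the deposited gene lengths, 35.1% were multiples of 3, so they are not limited to coding sequence.

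Scaling was by edgeR 4.0.16 (R 4.3.3) with the trimmed mean of M values, TMM, over 16894 genes of 10 or more reads in all. Ratios have exact conditional (Clopper-Pearson) 95% intervals, and levels of single libraries exact Poisson intervals (SciPy 1.17.1), which cover counting error only since amplification copies are not told apart. Log2 ratios used 0.5 added fragments. The floor was 3 fragments per library. The ratio of ratios of a pair of genes has the exact conditional interval of an odds ratio. No p-value was computed, because each group held 1 library. The interval rule was tested on simulated data that held only Poisson counting error, which the interval assumes. Variation between cultures was not simulated.

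The members and gene lists were chosen with earlier results of these data known. Named genes were SETD2, the members, VEGFD, EPAS1, HIF1A, ARNT, VHL, the tested genes beside a member, up to 2 higher and 2 lower genes per list ranked by the interval bound nearest to 1 (the 2 most abundant where none was called), and the 3 genes nearest in level to the most abundant ligand and to the most abundant receptor or neuropilin. Further markers and the genes at 0 were named after their values were seen, and the pair ratios were chosen likewise. Values of a few list members are not given here. Alternatives were total count, upper quartile and DESeq2 1.42.0 scaling, TMM on protein-coding genes, minimums of 1 and 50 reads, undivided counts, a 99% interval, 2-fold, the ratio without an interval, 2 added fragments, deposited RPKM and the ratio relative to the 50 nearest genes.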

Additional observations from a re-analysis of the deposited data

How the results depend on the processing

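NRP1 as the 1 higher member and VEGFA and NRP2 as the lower members were called under total count, upper quartile and DESeq2 scaling, TMM on protein-coding genes, minimums of 1 and 50 reads and a 99% interval. With undivided counts PGF joined them, giving 3 lower members, as each fragment then counts as 2. At 2-fold with TMM scaling, 0 members were higher and 0 lower, and 1540 genes were called in place of 3306. With total count or upper quartile scaling, the interval of NRP1 lay wholly above 2-fold. By the ratio alone, without an interval, 2 members were higher (FLT1 and NRP1), 4 lower (KDR, NRP2, PGF and VEGFA), and 6368 genes were called. The summed ligand ratio of 0.808 was 0.765 with TMM-scaled fragments per kb and 1.26 without VEGFA, which is the opposite direction. The summed neuropilin ratio of 0.949 was 0.898 with TMM-scaled fragments per kb. The mean of the receptor signalling list was 0.0605 in place of the median of -0.07, and that median was above 0 with total count and upper quartile scaling (at most 0.00445), where 6 of its genes were higher and 2 lower. Total count scaling moved the median of all genes to 0.09. With total count or upper quartile scaling, other angiogenic factors had 3 higher and 5 lower genes, and antiangiogenic factors 3 and 1. Under the same scalings VEGFA regulators had 3 and 3, processing genes 6 and 5, and trafficking genes 2 and 1. Of 56 alternative log2 ratios of single members, 0 changed sign among called members and 13 left the counting interval. Of the named marker calls, VIM was no longer lower with total count or upper quartile scaling, and 3 in place of 4 endothelial markers were higher with DESeq2 scaling. No paired analysis was possible because each line gave 1 library. Leaving out a replicate was not possible for the same reason. Depth limits the receptor kinases: at most 22 fragments per library lay behind each.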
